A study of Homo sapiens with 22 samples.

Results

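The genes described here are named as protein genes of the mitochondrial ribosome and carry the symbols MRPS (small subunit) or MRPL (large subunit) followed by a number. They were selected by symbol from the protein-coding RefSeq rows, with the transcript of the highest mean read count standing for each gene, which gave 78 genes among 20242 in the count tables. By their names 28 belong to the small and 50 to the large subunit. MRPS30 was counted with the large subunit in which it sits, and MRPS36, since placed in another mitochondrial complex, with the small one. The other genes were placed by symbol alone, and single genes may sit in the other subunit. RNA immunoprecipitation sequencing (RIP-seq) had been done in human prostate cancer cell lines with an antibody to PSF, also named SFPQ, a nuclear protein that binds RNA and takes part in splicing. The 12 libraries analysed comprised an input and a PSF-RIP library from LNCaP, 22Rv1 and a line labelled LTAD, each after vehicle (ethanol) or 10 nM dihydrotestosterone (DHT), an androgen, for 24 h. All cells had spent 3 days in hormone-stripped serum at 2.5% before treatment. LNCaP and 22Rv1 had been grown in whole serum, whereas LTAD had been kept in hormone-stripped serum throughout. LNCaP also provided 4 PSF-CLIP peak lists, 2 after vehicle and 2 after DHT, made from cells crosslinked with ultraviolet light.

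Mitochondrial ribosomes translate the few messages of the mitochondrial genome, all of which code for subunits of the oxidative phosphorylation complexes. Their protein components are all made from nuclear genes, translated on cytosolic ribosomes and imported, so every mRNA described here starts in the nucleus, where PSF resides. Many of these proteins descend from bacterial ribosomal proteins and share their numbers, and others are found only in mitochondria.

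Each line, treatment and assay had 1 library, and no label states that libraries came from separate cultures, so each p-value reflects only how far these particular libraries scatter. Total mapped reads ran from 1073228 to 3014049 in inputs and from 4641602 to 10439461 in PSF-RIP libraries. Input depth therefore limited precision, and MRPS36, the member with the lowest input level, had 2 to 11 reads per input. RIP with a nonspecific antibody was not analysed here, and each ratio compares PSF-RIP with input RNA. HOXB13, a marker of prostate luminal cells, had at least 347 reads in each input, and the basal markers KRT5 and TP63 had 0. KLK3, another luminal marker, had 2 and 13 reads in the LTAD inputs.

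Most mitochondrial ribosomal protein mRNAs were lower in PSF-RIP than in input. With edgeR's quasi-likelihood test over 13363 genes (adjusted p under 0.05), 55 of the 78 members were lower and 4 were higher, and 19 did not pass. The fit held line and treatment but no term for the 6 line-treatment pairs. Over all genes tested, 27.5% were lower and 30.5% higher. The median of the members was -0.58 on the log2 scale against 0.05 for all genes, and the median of single pairs ran from -0.87 in LTAD after vehicle to -0.47 in LNCaP after vehicle. A total of 51 members lay below input in 6 of 6 pairs (65.4%, against 23.3% of all genes), and 3 lay above in 6 of 6 (27.0% of all genes). For 24 members every PSF-RIP library was below every input library, or 30.8% against 7.93% of all genes. These ratios are relative to the scaling of the libraries: with library totals alone the median of all genes moved to 0.39, and 36 members were then lower and 11 higher.

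**Figure D1:**
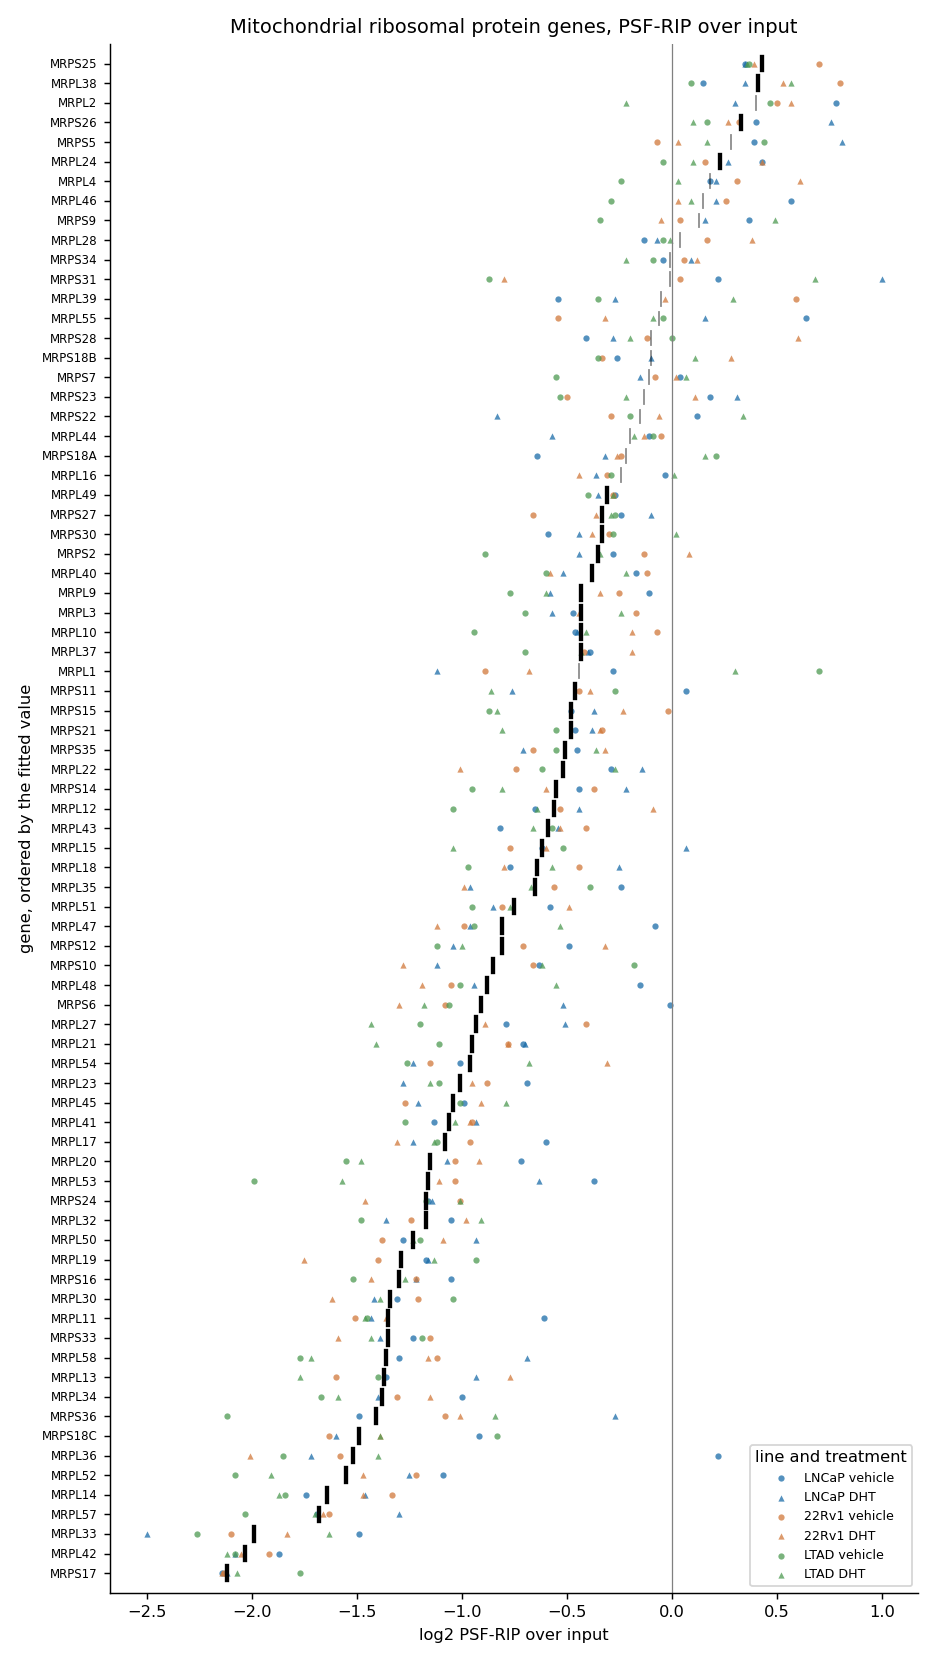
PSF-RIP over input (log2, horizontal axis) for the 78 genes, ordered by fitted value. Coloured points are the 6 line-treatment pairs (circles vehicle, triangles DHT), black ticks the fitted value, thick where the gene passed the test; 55 thick ticks lie below 0 and 4 above.

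The lower values were shared by both subunits. In the large subunit 39 of 50 genes were lower and 2 higher (median -0.78), and in the small subunit 16 of 28 were lower and 2 higher (median -0.41). In each of the 6 pairs the median of the large subunit was below that of the small subunit, from -0.96 to -0.60 against -0.55 to -0.32. Among the 44 genes numbered after bacterial proteins 33 were lower and 1 higher (median -0.63). Among the 34 genes with higher numbers, taken by number alone as specific to mitochondria, 22 were lower and 3 higher (median -0.47). Single genes may be misplaced by this rule. The difference between these groups was not tested.

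MRPS17, a small-subunit protein with a bacterial counterpart (chr7:56019611-56023033, hg19, plus strand), had the lowest ratio. Its level in CPM, the read count scaled to a common library size, was 33.8 to 48.8 in inputs (median 41.8) and 7.26 to 10.9 in PSF-RIP (median 9.96). All 6 PSF-RIP libraries were below all 6 inputs, and the ratio of 0.23 was log2 -2.12 ± 0.14 (SE, n = 6 libraries per assay, edgeR adjusted p = 8.57e-11).

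MRPL42, a large-subunit protein specific to mitochondria (chr12:93861266-93897548, plus strand), was the second lowest. Input CPM ranged from 150 to 297 (median 189) and PSF-RIP CPM from 35.8 to 77.9 (median 43.6). The groups did not overlap, and the difference was -2.03 ± 0.10 on the log2 scale (edgeR adjusted p = 3.01e-13).

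MRPL33, the counterpart of a small bacterial large-subunit protein (chr2:27994584-28002608, plus strand), ranged from 42.9 to 72.0 CPM in inputs (median 54.7) and from 8.29 to 16.8 in PSF-RIP (median 14.4). Its groups did not overlap either, although the pairs spread more widely than for MRPL42, from log2 -2.50 in LNCaP after DHT to -1.49 in LNCaP after vehicle. The fitted log2 difference was -1.99 ± 0.14 (edgeR adjusted p = 1.26e-10).

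The next 3 genes encode large-subunit proteins and followed the same pattern, with no overlap between groups. MRPL57, specific to mitochondria, had input CPM of 93.4 to 160 (median 121) and PSF-RIP CPM of 29.8 to 49.7 (median 37.4), a log2 difference of -1.68 ± 0.10. MRPL14, which has a bacterial counterpart, had 28.7 to 41.3 CPM (median 35.1) against 7.64 to 15.7 (median 11.3), or -1.64 ± 0.14. MRPL52, specific to mitochondria, had 40.9 to 97.0 CPM (median 55.4) against 17.2 to 25.6 (median 19.8), or -1.55 ± 0.15, and its 2 lowest pairs were those of LTAD (-2.08 and -1.91).

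The 4 members that were higher in PSF-RIP differed little from input, and 2 passed when LNCaP was left out. MRPS25, a small-subunit protein specific to mitochondria (chr3:15090019-15106844, minus strand), had input CPM of 71.7 to 112 (median 100) and PSF-RIP CPM of 91.9 to 156 (median 130). The groups overlapped because the LTAD pair after DHT lay lower in both assays, but PSF-RIP exceeded input in 6 of 6 pairs. The ratio was 1.34 (log2 0.43 ± 0.09, edgeR adjusted p = 0.000503).

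MRPL38, a large-subunit protein specific to mitochondria, had input CPM of 31.1 to 69.5 (median 60.1) and PSF-RIP CPM of 54.6 to 95.0 (median 71.4), and PSF-RIP was again above input in 6 of 6 pairs. The log2 difference was 0.41 ± 0.11 (edgeR adjusted p = 0.00233), and without 22Rv1 it was 0.29 (adjusted p = 0.0576). MRPS26, a small-subunit protein specific to mitochondria, had 80.5 to 173 CPM (median 86.1) in inputs and 101 to 185 (median 124) in PSF-RIP, with log2 0.33 ± 0.09 (adjusted p = 0.00483). It too lay above input in every pair, and without LNCaP its adjusted p was 0.097.

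MRPL24, a large-subunit protein with a bacterial counterpart, was the fourth gene that passed. Its CPM was 112 to 179 in inputs (median 147) and 135 to 225 in PSF-RIP (median 157), higher in 5 of 6 pairs, with log2 0.23 ± 0.09 (edgeR adjusted p = 0.0371). Leaving out LNCaP gave 0.18 (adjusted p = 0.204), and leaving out 22Rv1 gave 0.19 (adjusted p = 0.161).

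MRPL2 and MRPS5, whose bacterial counterparts belong to the large and the small subunit, had values as high but did not pass. MRPL2 had 9.58 to 15.8 CPM in inputs (median 11.7) against 13.4 to 18.8 in PSF-RIP (median 16.3), a log2 difference of 0.40 ± 0.17 (edgeR adjusted p = 0.0509). MRPS5 had 33.3 to 47.8 CPM (median 39.9) against 40.8 to 58.8 (median 48.8), or 0.28 ± 0.12 (adjusted p = 0.0521). With the line-treatment pair as a block both passed, with adjusted p of 0.0443 for MRPL2 and 0.0339 for MRPS5.

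Exonic length tracked PSF-RIP over input in the whole table, and the members were compared with a smoothed curve of log2 ratio on log2 length drawn over all 13363 genes. That curve lay at -1.25 for 600 bases, -0.66 for 1000 bases and 0.14 for 3000 bases. The members had a median length of 1240 bases and a median distance of -0.21 from the curve, 47 lying below it and 31 above. Short members lay close to it: the 13 genes under 800 bases had a median of -1.06 and a median distance of 0.01, and 12 of them were lower in PSF-RIP. The 16 genes of 2000 bases or more did not follow it: 13 were lower and 13 lay below the curve, with a median of -0.60 and a median distance of -0.74. When the length trend of each library was removed before the test, 34 members were lower and 17 higher.

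The 4 members farthest below the curve were all long large-subunit transcripts. MRPL42, at 3139 bases, lay at a log2 distance of -2.18 from it and MRPL57, at 2655 bases, at -1.78. MRPL30, which has a bacterial counterpart, has a transcript of 4536 bases; its CPM was 54.8 to 89.9 in inputs (median 84.5) and 17.4 to 39.4 in PSF-RIP (median 33.1), at a distance of -1.50. MRPL19, at 7827 bases, had 67.1 to 133 CPM (median 76.0) against 32.0 to 48.6 (median 34.9), at a distance of -1.49. In both genes the PSF-RIP libraries lay entirely below the inputs.

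The 4 farthest above the curve had transcripts of 707 to 1039 bases. MRPL24 (927 bases) lay at 0.98, MRPS28 (707 bases) at 0.96, MRPS26 (1039 bases) at 0.95 and MRPL46 (1000 bases) at 0.82. MRPS28, of the small subunit, had input CPM of 18.7 to 38.8 (median 35.2) and PSF-RIP CPM of 28.6 to 31.4 (median 29.5). These overlapped, and its log2 difference of -0.10 ± 0.14 did not pass (edgeR adjusted p = 0.545). MRPL46, a large-subunit protein specific to mitochondria, had 13.8 to 22.8 CPM (median 14.6) against 14.9 to 21.2 (median 17.2), also overlapping (0.15 ± 0.15, adjusted p = 0.401).

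Coding length, the number of bases that encode the protein, ordered the members more closely than exonic length. This measure was examined after the exonic lengths had been compared. Across the 78 genes Spearman's rho of the log2 ratio was 0.66 with coding length, 0.25 with exonic length and -0.10 with the noncoding rest of the transcript. Within single pairs rho with coding length ranged from 0.49 in LNCaP after vehicle to 0.69 in LTAD after DHT. Genes are not independent replicates, and the 6 pairs share the same transcripts, so these coefficients are descriptions. Of the 26 members with coding sequences of 195 to 477 bases, 25 were lower and 0 higher, with a median of -1.19. The 26 with 483 to 750 coding bases had a median of -0.60 (18 lower, 3 higher), and the 26 with 753 to 1317 coding bases a median of -0.29 (12 lower, 1 higher). MRPL42, MRPL57 and MRPL30, which lay far below the curve of exonic length, have 426, 306 and 483 coding bases. MRPL19, also far below it, has 876 coding bases and lay far below the curve of coding length as well (-1.07).

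The same order held outside the family. Over 12171 protein-coding genes with a coding length, rho was 0.56 with coding length, 0.28 with exonic length and -0.05 with noncoding length. In the 544 genes with 301 to 450 coding bases the median log2 ratio was -1.02, and 79.2% were lower in PSF-RIP; the 20 members in that range had a median of -1.23 and 19 were lower. At 451 to 600 coding bases the medians were -0.69 for all genes and -0.65 for 18 members, at 601 to 900 they were -0.33 and -0.43 (21 members), and at 901 to 1500 they were 0.00 and -0.17 (16 members). Against a curve of coding length over all these genes the members lay at a median distance of -0.12, 49 below and 29 above, with an SD of 0.47 against 0.57 for all genes.

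**Figure D2:**
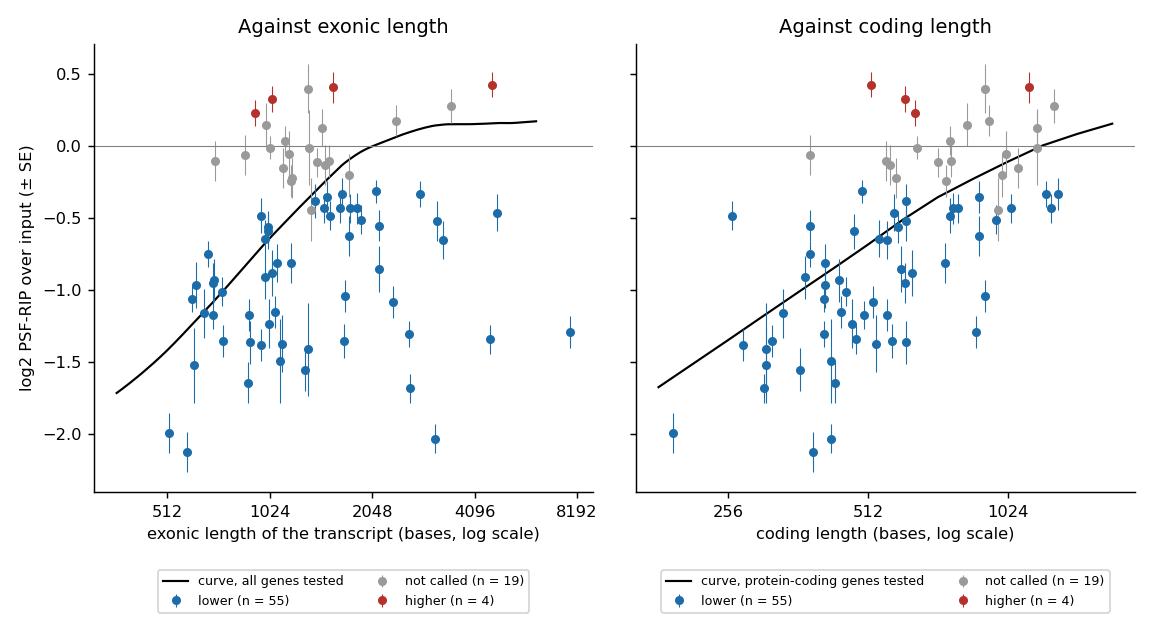
PSF-RIP over input (log2, ± SE, vertical axis) against exonic length (left) and coding length (right) on log scales, 1 point per gene, with the smoothed curve over all genes. The long transcripts at the lower right of the left panel, down to -2.03 at 3139 bases, lie nearer the curve on the right.

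Members that stood away from the coding-length curve, chosen after their values were seen, included genes at both ends of the ranking. MRPS17 lay at -1.18, MRPL42 at -1.17 and MRPL19 at -1.07, whereas MRPS25 lay at 1.10 with 519 coding bases in a transcript of 4594 bases. MRPL55, a large-subunit protein specific to mitochondria, has 384 coding bases and was the member of the shortest 26 that was not lower; it lay at 0.89.

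Level in the input was a weaker correlate. The median input level per length, in CPM per kilobase of exon (RPKM), ran from 4.70 for MRPS36 to 296 for MRPL51 with a median of 42 over the members. Spearman's rho of the log2 ratio with input RPKM was -0.14 (n = 78), and -0.27 over all genes. MRPL51 (182 to 320 RPKM over the 6 inputs), MRPL41 (110 to 258, median 188) and MRPL24 (121 to 194, median 159) were the most abundant per length. The first 2 encode large-subunit proteins specific to mitochondria and were lower in PSF-RIP: MRPL51 had a log2 difference of -0.75 ± 0.09 (81.8 to 139 CPM against 123 to 217 in inputs) and MRPL41 of -1.06 ± 0.09 (34.1 to 72.6 against 66.5 to 156). In both genes the assays overlapped in CPM across lines, but PSF-RIP was lower within 6 of 6 pairs, and both ratios changed sign once the length trend was removed (0.37 and 0.17). MRPL24, as described above, was higher.

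The 3 least abundant members were read thinly. MRPS36, named for the small subunit and since placed in the 2-oxoglutarate dehydrogenase complex, had 1.22 to 8.11 RPKM, and its CPM was 1.26 to 3.52 in PSF-RIP and 1.62 to 10.8 in inputs, overlapping (log2 -1.41 ± 0.32, edgeR adjusted p = 0.000805). MRPS18C, of the small subunit, had 3.75 to 8.19 RPKM and did not overlap between assays, at 1.51 to 3.82 CPM against 4.13 to 9.01 (-1.49 ± 0.29, adjusted p = 0.000146). MRPS31, also small-subunit, had 2.42 to 8.94 RPKM, and its pairs scattered from -0.87 to 1.00 around a fitted -0.01 ± 0.26 (adjusted p = 0.989), above input in 4 of 6 pairs.

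Other gene lists of mitochondrial gene expression gave a scale for these values. Ribosomal protein genes of the cytosol were lower in 75 of 81 cases (2 higher, median -1.72), led by RPS15A at -3.87 ± 0.10 and RPL39 at -3.85 ± 0.19, whereas RPS3A rose by 1.47 ± 0.23 and RPL36A by 1.19 ± 0.29. Many processed copies of such genes exist in the genome, which makes their counts uncertain. Nuclear genes of oxidative phosphorylation were lower in 65 of 80 cases and higher in 9 (median -1.16), from ATP5E at -3.39 and UQCRHL at -2.63 to SDHA at 0.53 and NDUFV1 at 0.67. In both lists coding length again ordered the ratios more closely than exonic length, with rho of 0.48 against 0.35 and of 0.82 against 0.43. The members lay between these lists and all genes in every pair, with pair medians of -0.87 to -0.47, against -1.36 to -1.07 for oxidative phosphorylation. Median distances from the curve of exonic length were -0.88 for cytosolic ribosomal protein genes and -0.28 for oxidative phosphorylation, against -0.21 for the members.

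The enzymes and factors that serve the mitochondrial ribosome had higher medians, with no test of the difference. Their transcripts were also longer. Median exonic lengths were 2790 bases for synthetases, 2460 for translation factors, 2090 for assembly and 2890 for transcription and replication, against 1240 for the members. In that order the median distances from the curve of exonic length were 0.35, 0.05, 0.01 and 0.22, against -0.21 for the members. Of 17 mitochondrial aminoacyl-tRNA synthetases, which charge the transfer RNAs, 10 were higher and 1 lower (median 0.36), AARS2 at 1.18 ± 0.15 and HARS2 at 1.11 ± 0.13 leading, with EARS2 at 0.33 the lowest of those that rose and WARS2 at -0.74 the one that fell. Of 14 translation factors and regulators 4 were higher and 4 lower (median 0.14), from TACO1 at 0.85 and LRPPRC at 0.46 to MTIF3 at -1.13 and SLIRP, which pairs with LRPPRC, at -2.01. Of 20 assembly factors 6 were higher and 5 lower (median 0.05), from MTERF4 at 0.85 and MTG2 at 0.77 to MALSU1 at -0.96 and GTPBP10 at -1.15. Of 10 genes of mitochondrial transcription and replication 4 were higher and 2 lower (median -0.15), from the polymerase genes POLG at 1.42 and POLG2 at 0.93 to MTPAP at -0.46 and the DNA-packaging factor TFAM at -1.12.

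A further 5 mitochondrial ribosomal proteins have other symbols and were not selected. CHCHD1 (log2 -1.13 ± 0.15), GADD45GIP1 (-0.55 ± 0.11) and DAP3 (-0.24 ± 0.10) were lower, AURKAIP1 did not pass (-0.05 ± 0.08), and PTCD3, whose transcript is the longest of them at 6734 bases, was higher (0.54 ± 0.11).

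**Figure D3:**
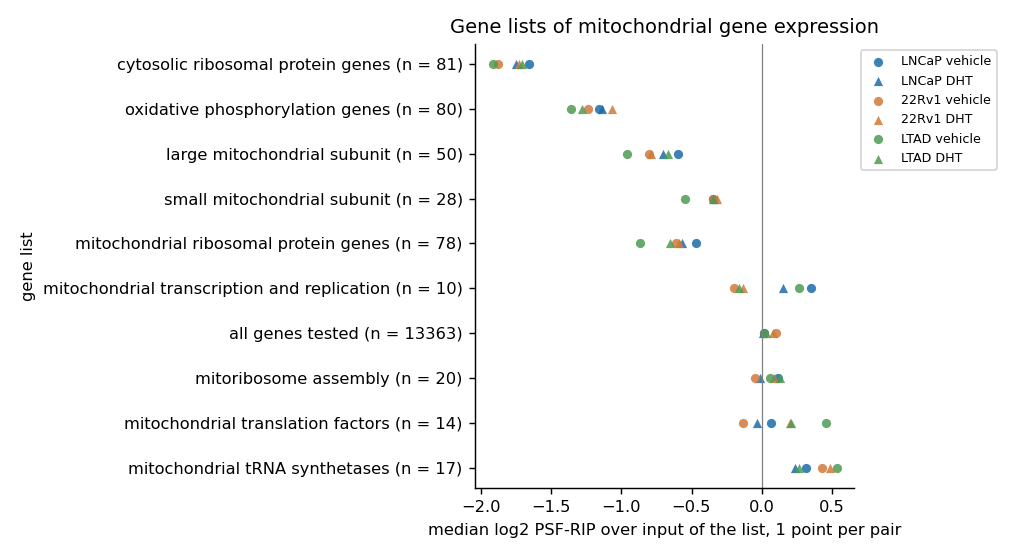
Median log2 PSF-RIP over input (horizontal axis) of each gene list in the 6 line-treatment pairs, 1 point per pair. The 78 members lie between -0.87 and -0.47, to the right of oxidative phosphorylation genes and to the left of all genes tested. The lists differ in median transcript length, which is not adjusted for here.

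Several members share a start region with a gene that runs the other way, which allows 2 mRNAs from neighbouring starts to be compared. There were 13 such pairs with a gap of at most 100 bases (hg19), found after the data had been examined. The member lay below its neighbour in PSF-RIP over input in 5 or 6 of the 6 line-treatment pairs in 11 of the 13. In the other 2 it did so in 0 or 1. Those 2 include MRPL46 and MRPS11, both members, where MRPL46 was taken as the member. With MRPS11 in its place that pair would join the larger group. The members' median was -0.58 against 0.05 for all genes, and no other neighbouring genes were compared. The 4 neighbouring pairs described here were chosen after their values were seen. MRPL43, a large-subunit gene specific to mitochondria (chr10:102746027-102747272, minus strand), lies 20 bases from TWNK, which encodes the mitochondrial DNA helicase. MRPS12, whose bacterial counterpart helps form the decoding centre (chr19:39421594-39423659, plus strand), lies 57 bases from SARS2, the mitochondrial seryl-tRNA synthetase. MRPL46 and MRPS11 are both members and lie 50 bases apart. The sequences between the starts are given on the plus strand to show how little DNA separates transcripts with different ratios, and capitals mark the letters CCGGAAG, a core bound by ETS-family factors:
MRPL43 and TWNK, chr10:102747273-102747292: ttccgggacgaccgctcccg
MRPS12 and SARS2, chr19:39421537-39421593: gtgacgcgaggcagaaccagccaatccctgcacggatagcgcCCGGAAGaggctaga
MRPL46 and MRPS11, chr15:89010634-89010683: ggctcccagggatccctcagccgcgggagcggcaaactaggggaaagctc

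MRPL43 was lower in PSF-RIP in 6 of 6 pairs (20 to 57.4 CPM against 29.9 to 80.4 in inputs, overlapping across lines), with log2 -0.59 ± 0.12 (edgeR adjusted p = 0.000326) that moved to 0.07 once the length trend was removed. Its neighbour TWNK was higher in 6 of 6, at 0.71 ± 0.14 (adjusted p = 0.000224). MRPS12 was lower with no overlap (27.3 to 38.8 CPM against 41.3 to 82.6; -0.81 ± 0.13, adjusted p = 1.52e-05), while SARS2 did not pass (0.25 ± 0.18, adjusted p = 0.248) and lay above MRPS12 in 6 of 6 pairs.

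MRPL46 was not lower (0.15 ± 0.15, above), and MRPS11, its neighbour and a small-subunit protein with a bacterial counterpart, was (21.3 to 35.2 CPM against 24.8 to 49.7, overlapping; -0.46 ± 0.13, adjusted p = 0.00496). MRPS11 has the longer transcript (4759 against 1000 bases) and the shorter coding sequence (582 against 837 bases). The difference between neighbours was not tested. In MRPL49, of the large subunit, the order was the other way: FAU, a cytosolic ribosomal protein gene 43 bases away, was the lower of the 2 in all 6 pairs (-1.29 ± 0.08).

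The CCGGAAG letters, on either strand, occurred in 29 of the 69 members with a promoter in the RefSeq table (42%; GRCh38.p14, 250 bases before to 50 after the start), against 10.7% of 27305 promoters of that length. This was one result of a search with 7 motifs. The others were ACTTCCGG, which overlaps the first (15.9% of members, 4.44% of all), GCATGCGC (8.70%, 3.27%) and the full NRF1 motif that contains it (1.45%, 1.36%), GGGCGG (60.9%, 44.6%), TATAAA (2.90%, 12% of all) and CTCTTTCC (1.45%, 3.09%). Members with CCGGAAG had a median input level of 45.7 RPKM and those without it 40.7 RPKM, and their median log2 PSF-RIP over input was -0.81 and -0.49. The mean GC content was 61.5% in member promoters and 57.2% in all promoters, and its part in these shares was not tested. A match describes these letters only.

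Relative to mapped reads alone, intronic reads of the members were higher in PSF-RIP and their exonic reads lower in 6 of 6 pairs. Introns of the representative transcripts were summed over 77 members, leaving out MRPS6, whose intron holds SLC5A3 and which alone had 4932 intronic reads in PSF-RIP. Among members' reads the intronic share was 7.66 to 13.0% in inputs and 11.2 to 22.4% in PSF-RIP, and it was higher in PSF-RIP in 6 of 6 pairs. The largest difference was in LNCaP after vehicle, from 13.0 to 22.4%, and the smallest in 22Rv1 after DHT, from 12.5 to 14.8%. Relative to mapped reads, without further scaling, the log2 ratio of PSF-RIP to input was 0.21 to 0.83 for the members' intronic reads and -0.38 to -0.07 for their exonic reads. For all genes tested these ratios were 0.27 to 0.68 and -0.01 to 0.07. The scaling factors of the edgeR test were larger in PSF-RIP (1.049 to 1.248) than in inputs (0.7432 to 0.9993). Ratios scaled in that way would be lower, and whether the smaller intronic ratios of the members would stay above 0 is not given here. The members' intronic ratio was below that of all genes in both 22Rv1 pairs and in LTAD after DHT, and above it in the other pairs. The intronic share was also higher in all genes tested, going from between 10.5 and 15.5% in inputs to between 12 and 21.9% in PSF-RIP. In PSF-RIP the members' intronic share was lower after DHT than after vehicle in each line (22.4 and 18.3% in LNCaP, 18.7 and 14.8% in 22Rv1, 12.9 and 11.2% in LTAD), as was that of all genes. In inputs the members' share after vehicle and DHT was 13.0 and 11.2% in LNCaP, 12.9 and 12.5% in 22Rv1, and 7.66 and 8.08% in LTAD.

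Of 64 members with at least 20 intronic reads over the inputs, the share was higher in PSF-RIP for 49 and lower for 15, and no test was applied. The same count over all genes is not given here, and their pooled share was higher in PSF-RIP in every pair. The count therefore does not set the members apart. Such a share moves with the exonic reads as well as the intronic ones, so it is no separate measure of the exonic ratio. It went from 5.85 to 35.9% in MRPS17, from 13.8 to 53.4% in MRPL33 and from 10.6 to 31.7% in MRPL52. For MRPS25 it went from 19.3 to 13.6%, with 176 intronic and 736 exonic reads over the inputs and 742 and 4717 over the PSF-RIP libraries. Intronic rows can include reads of other genes that lie within them.

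**Figure D4:**
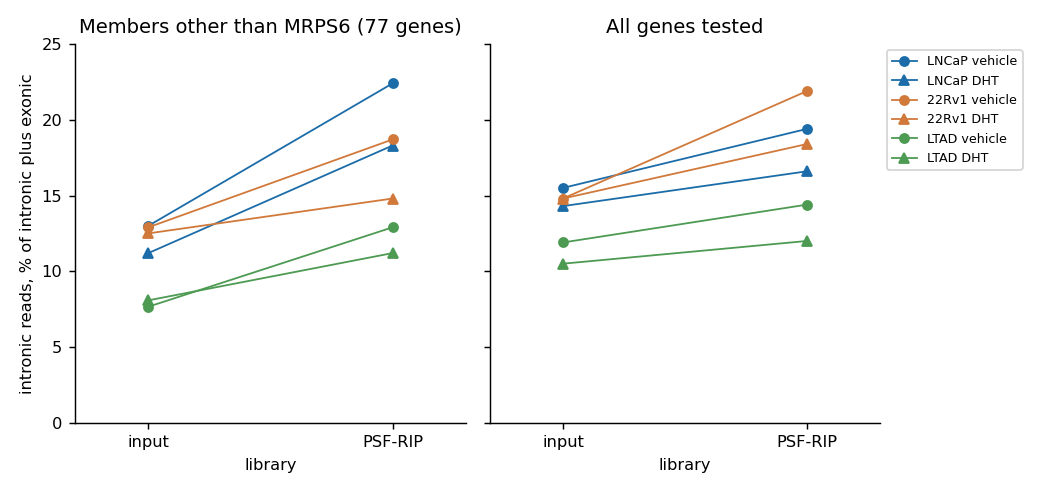
Intronic reads as a percentage of intronic plus exonic reads (vertical axis) in input and PSF-RIP, with lines joining the 6 line-treatment pairs, for 77 members (left) and all genes tested (right). All 6 lines rise in both panels, in the members from 7.66 to 13.0% in inputs to 11.2 to 22.4% in PSF-RIP.

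CLIP-seq, in which crosslinked RNA is isolated with the protein, gave peaks in a share of these genes that was below that of all genes in each of the 4 LNCaP lists, and near it in 3. In LNCaP a peak overlapped 30 of 78 members in the first vehicle list and 2 in the second, or 38.5 and 2.56% against 43.9 and 11.4% of all genes tested. After DHT it overlapped 26 and 18 members (33.3 and 23.1%, against 42.3 and 26.8%). The lists differ in size, from 7691 to 24242 peaks, the second vehicle list being the smallest, and they carry no strand, so a peak may belong to a gene on the other strand. Most peaks in members were intronic, 50 of 64 in the first vehicle list and 52 of 63 in the first DHT list. The 34 members with a peak in any list had a median log2 PSF-RIP over input of -0.60 and a median span of 15289 bases, and the 44 without had -0.58 and 4723 bases.

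Only MRPL14 and MRPL21, both large-subunit genes with bacterial counterparts, had a peak in all 4 lists, or 2.56% of members against 6.29% of all genes, the count being bounded by the 2 members in the second vehicle list. In MRPL14 (chr6:44081191-44094411, minus strand) the 4 peaks covered the same intronic place and shared 116 bases, chr6:44083048-44083163, with the authors' scores between 62.2 and 175.7. Its mature mRNA was among the lowest in PSF-RIP, and its intronic share went from 11.9 to 23.1%. MRPL14 had 37 intronic and 273 exonic reads over the inputs, and 123 and 410 over the deeper PSF-RIP libraries. The share moves with the exonic reads as well, so it does not show more intronic RNA in PSF-RIP. The peak of the second DHT list is given on the strand of the gene, with the 116 shared bases in capitals, as the place in the family where all 4 lists coincided:
MRPL14 intron, chr6:44082995-44083277, minus strand, hg19: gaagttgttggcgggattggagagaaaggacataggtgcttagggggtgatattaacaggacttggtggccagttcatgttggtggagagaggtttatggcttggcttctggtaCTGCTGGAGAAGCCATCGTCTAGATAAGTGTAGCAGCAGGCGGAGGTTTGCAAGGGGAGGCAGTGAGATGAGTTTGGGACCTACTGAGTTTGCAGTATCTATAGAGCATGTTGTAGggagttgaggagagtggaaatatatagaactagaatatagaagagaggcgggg
In MRPL21 the peaks of 3 lists overlapped near chr11:68659673-68660017, and the first DHT list had its peak elsewhere in the gene.

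DHT changed no member past the threshold. In inputs 0 of 78 passed edgeR's test in either direction (0.436% of all genes were higher and 0.189% lower), 0 passed DESeq2, and 1 had an unadjusted p under 0.05. The members' median DHT difference was 0.14 in LNCaP, 0.05 in 22Rv1 and -0.16 in LTAD, against -0.01, -0.01 and 0.0 for all genes. In all 3 lines 11 members lay above 0 and 6 below 0, and the share of all genes that did so is not given here. MRPS11 had the smallest p and did not pass: its CPM was 24.8 after vehicle and 36.5 after DHT in LNCaP, 36.6 and 46.5 in 22Rv1, and 34.7 and 49.7 in LTAD (log2 0.46 ± 0.20, adjusted p = 0.413). MRPL49 was at 113 and 135, 85.4 and 95.7, and 125 and 157 CPM (0.25 ± 0.12, adjusted p = 0.473), higher after DHT in each line. MRPL12, which forms the stalk of the large subunit, was at 93.2 and 97.3, 109 and 91.5, and 147 and 102 CPM (-0.24 ± 0.15, adjusted p = 0.583), with lines that differed in direction. The median SE of the members' DHT difference was 0.175 log2 units.

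PSF-RIP over input did not differ between DHT and vehicle at the threshold for any member either, and 0 passed with the line-treatment pair as a block. In the tests without pairing none of the 78 members passed edgeR or DESeq2 (0.0% of all genes in either direction by edgeR), and 1 had an unadjusted p under 0.05. That gene was MRPS18B, of the small subunit, whose log2 ratio went from -0.26 to -0.10 in LNCaP, from -0.33 to 0.28 in 22Rv1 and from -0.35 to 0.11 in LTAD (difference 0.42 ± 0.19, adjusted p = 1.0). MRPL35 went from -0.24 to -0.96, -0.56 to -0.99 and -0.39 to -0.67 (-0.48 ± 0.22), and MRPS10 from -0.63 to -1.12, -0.66 to -1.28 and -0.18 to -0.62 (-0.55 ± 0.28). Both have bacterial counterparts, and each was lower after DHT in 3 of 3 lines without passing.

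The lines differed in input levels of many members. Between 22Rv1 and LNCaP 16 members were higher and 12 lower in 22Rv1, against 26.5 and 23.3% of all genes, so the 20.5 and 15.4% of members were below the background. This split followed the scaling: with library totals alone the median of all genes moved to -0.26 and 5 members were higher and 19 lower, and with the length trend removed 6 were higher and 17 lower. With the line-treatment pair as a random effect MRPL13, MRPL15, MRPL35 and MRPL9 no longer passed (adjusted p of 0.0556, 0.0834, 0.0787 and 0.0787), which left 12 higher and 12 lower. The counts also moved when libraries were left out. Without 22Rv1 vehicle 5 were higher and 3 lower, without LNCaP vehicle or without 22Rv1 DHT 6 were higher, and without LNCaP DHT 5 were lower.

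MRPL11, a protein of the stalk base, had 21.9 and 34.8 RPKM in the LNCaP inputs (vehicle, DHT) and 76.1 and 72.7 in 22Rv1, a ratio of 2.63 (log2 1.40 ± 0.22, edgeR adjusted p = 0.000295). MRPL42 had 47.8 and 55.6 RPKM against 94.7 and 90.1 (0.85 ± 0.17), and MRPL19 9.28 and 10.1 against 16.4 and 17.0 (0.79 ± 0.16). In all 3 genes both 22Rv1 libraries were above both LNCaP libraries.

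In the other direction, MRPL28 had 61.5 and 62.6 RPKM in LNCaP and 31.6 and 37.1 in 22Rv1 (-0.86 ± 0.18). MRPL20 had 117 and 137 against 67.6 and 76.8 (-0.81 ± 0.18). MRPL40, specific to mitochondria, had 34.4 and 40.3 against 13.6 and 22.9 (-1.05 ± 0.25), and did not pass without the 22Rv1 vehicle libraries (adjusted p = 0.108). The groups were separate in each of these 3 genes.

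LTAD differed from LNCaP in fewer members: 5 were higher and 1 lower (6.41 and 1.28%, against 2.92 and 5.26% of all genes). MRPS26 had 81.0 and 78.1 RPKM in LNCaP and 138 and 166 in LTAD (log2 0.94 ± 0.16, edgeR adjusted p = 0.00358). MRPS6, the counterpart of a bacterial protein, had 21.7 and 25.4 against 48.4 and 51.0 (1.08 ± 0.24, adjusted p = 0.0172), with SLC5A3 overlapping it on the same strand. These 2 genes had the smallest p, and both LTAD libraries lay above both LNCaP libraries.

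MRPS16 (57.3 and 60.0 against 103 and 81.7 RPKM, 0.65 ± 0.15), MRPS23 (11.6 and 15.2 against 28.1 and 28.5, 1.07 ± 0.25) and MRPL51 (182 and 223 against 320 and 303, 0.62 ± 0.15) were higher as well. MRPS10, of the small subunit, was lower, at 9.25 and 11.7 RPKM in LNCaP and 3.92 and 4.79 in LTAD (-1.27 ± 0.32, adjusted p = 0.0328), which rests on 7 and 13 reads in the LTAD inputs. These calls were fragile: with the line-treatment pair as a random effect MRPS10 (adjusted p = 0.0713) and MRPS23 (0.0631) did not pass, and 0 were lower with any line-treatment pair left out. Without LNCaP vehicle or without LTAD vehicle 1 member was higher, and without LNCaP DHT, 22Rv1 vehicle or 22Rv1 DHT 2 were.

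LTAD and 22Rv1 were set against each other in the same model, with 24 members higher in LTAD and 9 lower (30.8 and 11.5%, against 22.2 and 26.3% of all genes). With library totals alone the counts were 37 and 4, and the median of all genes was 0.34. Without 22Rv1 vehicle 11 were higher and 5 lower, without 22Rv1 DHT 14 and 4, without LTAD vehicle 13 were higher, and without LTAD DHT 5 were lower. MRPL20 had 67.6 and 76.8 RPKM in 22Rv1 and 201 and 167 in LTAD (1.34 ± 0.18, edgeR adjusted p = 8.75e-05). MRPS15, of the small subunit, had 63.9 and 83.4 against 185 and 152 (1.19 ± 0.19), and MRPL41 110 and 146 against 258 and 247 (0.98 ± 0.16). In these genes both LTAD libraries exceeded both 22Rv1 libraries.

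The same held for the other 3 genes named by the smallest p. MRPL58, which releases peptides from stalled mitochondrial ribosomes, had 25.2 and 25.6 against 85.6 and 62.5 RPKM (1.53 ± 0.26). MRPS26 had 77.5 and 84.8 against 138 and 166 (0.91 ± 0.15), and MRPL28 31.6 and 37.1 against 67.2 and 78.1 (1.08 ± 0.18). The comparisons of lines share libraries, so their values are not independent of one another.

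**Figure D5:**
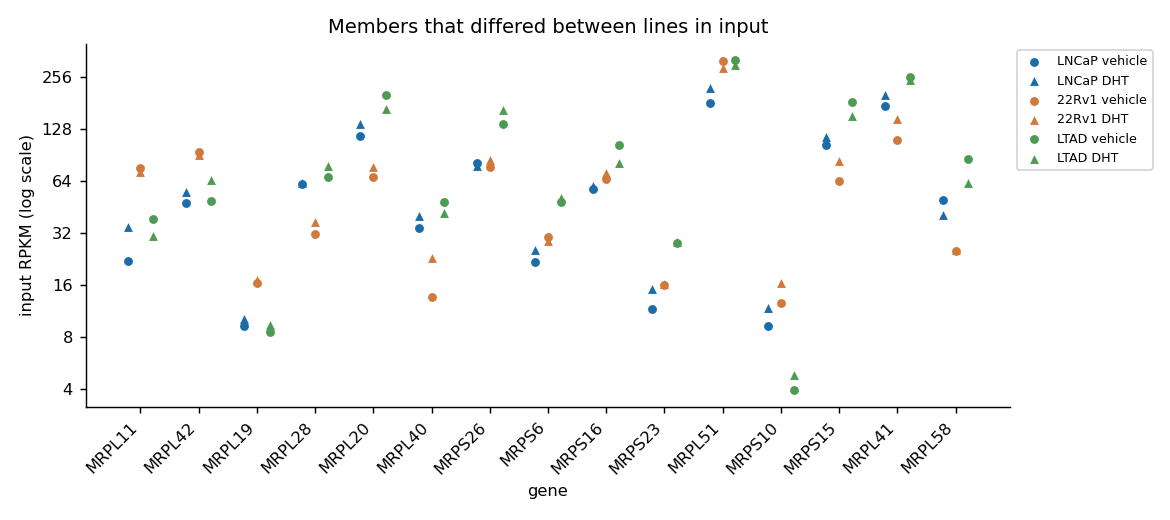
Input level (RPKM, log scale, vertical axis) of the 15 members named in the line comparisons, with the vehicle (circle) and DHT (triangle) library of each line. MRPL11, MRPL42 and MRPL19 are highest in 22Rv1, and MRPS10 is lowest in LTAD, at 3.92 and 4.79.

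PSF-RIP over input did not differ between lines past the threshold for any member with edgeR or DESeq2 when the libraries were not paired. With the line-treatment pair as a block 3 members passed in LTAD against LNCaP and 0 in 22Rv1 against LNCaP. In 22Rv1 against LNCaP 0 of 78 passed and 3 had an unadjusted p under 0.05 (0.0% of all genes passed in either direction, and 801 of 13770 had an unadjusted p under 0.05). MRPS6 had log2 ratios of -0.01 and -0.52 in LNCaP and -1.08 and -1.30 in 22Rv1 (difference -0.95 ± 0.31, adjusted p = 0.846), and MRPL55 had 0.64 and 0.16 against -0.54 and -0.32 (-0.81 ± 0.33). MRPS5 had 0.39 and 0.81 against -0.07 and 0.03 (-0.62 ± 0.26). The values of the 2 lines were separate in all 3 genes.

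In LTAD against LNCaP 0 of 78 passed and 8 had an unadjusted p under 0.05 (0.0% of all genes passed, and 711 of 13770 had an unadjusted p under 0.05). MRPL53, a large-subunit protein specific to mitochondria, had -0.37 and -0.63 in LNCaP and -1.99 and -1.57 in LTAD (-1.27 ± 0.35, adjusted p = 0.928). MRPS6 had -1.06 and -1.18 in LTAD (-0.87 ± 0.30), and MRPL1, with 6 and 12 reads in the LTAD inputs, 0.70 and 0.30 in LTAD against -0.28 and -1.12 (1.28 ± 0.49). With the pair as a block 3 members were lower in LTAD: MRPL53 (edgeR adjusted p = 0.0126), MRPL20 (0.0224) and MRPL52 (0.031). The 0.0% of all genes belongs to the test without the block. The share of all genes that passed with it is not given here, so these 3 calls cannot be set against a background.

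Some counts carry known uncertainty. MRPS24 overlaps a readthrough transcript on its strand, MRPL3 and MRPL23 contain small nucleolar RNA genes, and reads of close genomic copies cannot be assigned with these tables. The level of an mRNA in input reflects cells of the whole culture, in which fewer cells and less RNA per cell cannot be told apart.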

How the data were processed

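Input RNA and RNA from PSF-RIP were sequenced after library preparation with a SureSelect kit, per the labels. The deposited tables hold read counts per RefSeq exon set and intron on hg19. TopHat2 2.1.0, Bowtie2 2.2.6 and Bowtie are named in the submitters' processing notes without a role. The authors' CLIP peak lists give a score per peak and no strand, so overlaps (1 base) ignored strand, which had been planned otherwise. Whole counts entered edgeR 4.0.16 (R 4.3.3; TMM scaling, filterByExpr, quasi-likelihood test, Benjamini-Hochberg threshold 0.05). PSF-RIP against input used line, treatment and assay as terms; the other comparisons let line and treatment effects differ between the assays, over all 12 libraries. Scripts were tested on simulated data. RPKM is CPM per 1000 exonic bases. Coding lengths came from GENCODE v44lift37 canonical transcripts, with older symbols matched through RefSeq. Symbols with a protein-coding row were represented by it, also where a noncoding row had more reads.

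The members and lists were chosen with earlier results of these data known. Genes with values per library were the 6 lowest and 6 highest by PSF-RIP over input, the 4 farthest on each side of the length curve, the 3 highest and lowest in RPKM, and up to 6 per other comparison by smallest p (3 where none passed); in other lists, the 2 highest and 2 lowest that passed. Coding length, neighbouring starts and promoter motifs were examined after seeing the data. PSF-RIP and input libraries pair by the line and treatment in their labels, and their deviations from the assay means correlated at 0.80 to 0.94 in the 6 pairs. Alternatives were RLE scaling, library totals, DESeq2 1.42.0, no filter, a pair block (limma 3.58.1 for inputs), removal of length trends, longest transcripts, thinning to 837975 reads, no mitochondrial genome, and left-out lines or pairs. A second LNCaP set of 4 samples, whose 12 columns could not be assigned, was not used.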

Additional observations from a re-analysis of the deposited data

Results flagged for a closer look

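Gaps between the 6 line-treatment pairs were examined for the 24 members whose PSF-RIP over input is given by library. In 2 of them 1 pair lay apart from the other 5 by more than the 95% critical share of the range in Dixon's test, which chance gives in about 1 of 20 groups. For MRPS17, the member with the lowest ratio, the LTAD pair after vehicle was the highest at log2 -1.77, and the other pairs lay between -2.14 and -2.07. For MRPS25, the member with the highest ratio, the 22Rv1 pair after vehicle was the highest at 0.70, and the others lay between 0.35 and 0.39. Both genes kept their direction in all 6 pairs.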

How the results depend on the processing

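The counts and medians given in the report gave 220 recomputed values, of which 172 stayed within 1.5 times or within their spread and 48 moved. PSF-RIP against input moved most with the scaling: with library totals alone 11 members were higher and 36 lower (median -0.25), and with the length trend removed 17 and 34 (median -0.18), where rho with coding length was 0.35. The sides of the smaller ratios changed with it: with the length trend removed MRPL41 lay at 0.17, MRPL43 at 0.07, MRPL51 at 0.37, MRPS28 at 0.96 and MRPS31 at 0.37, and with library totals MRPS28 at 0.23 and MRPS31 at 0.32. MRPS31 also lay at 0.05 without a filter and at 0.02 without the mitochondrial genome, and the DHT difference of MRPS10 at 0.01 after thinning. The cause was not tested.

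With library totals alone 22Rv1 against LNCaP had 5 members higher and 19 lower and the members' median turned from 0.08 to -0.17, LTAD against LNCaP had 9 higher, and LTAD against 22Rv1 37 higher and 4 lower. With the length trend removed 22Rv1 against LNCaP had 6 higher and 17 lower (median -0.14). It had 7 lower with DESeq2 and 6 after thinning, where LTAD against LNCaP had 0 lower. The replicate block on line-treatment pairs left 0 lower in that comparison and called 3 members in its PSF-RIP over input; it changed 13 calls of members in all, and for PSF-RIP against input gave 6 higher and 57 lower. A peak in both CLIP lists was found in 2 members after vehicle (30 in either list) and 16 after DHT (28), or 2.56 and 20.5% against 8.78 and 21% of all genes. Peaks with a score of at least 100 were found in 16, 1, 14 and 5 members of the vehicle and DHT lists in turn, or 20.5, 1.28, 17.9 and 6.41% against 26.3, 1.59, 22.7 and 5.40% of all genes.

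Leaving out lines or line-treatment pairs gave 2 to 6 members higher in PSF-RIP, 52 to 57 lower and medians of -0.65 to -0.56. MRPS28 then ranged from -0.25 to 0.02 and MRPS31 from -0.24 to 0.21. In inputs 22Rv1 against LNCaP had 5 to 17 higher and 3 to 12 lower, LTAD against LNCaP 1 to 7 higher and 0 lower, and LTAD against 22Rv1 11 to 24 higher and 4 to 10 lower. Among 861 values for single members 783 kept direction and call, 45 lost the call, 18 gained one and 15 changed sign. Input depth is one limit: the thinly read members MRPS36, MRPS31 and MRPS18C have SEs of 0.26 to 0.32.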
